A study of Mus musculus with 24 samples.

Results

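The genes described here encode the contractile unit of heart muscle and its anchoring structures. They are 36 genes chosen by name for their place in the sarcomere and the Z-disc, with earlier results of these data known. Each was read from the array probe set that carries its symbol alone. All 36 were found, among 19505 genes with a single symbol on the array, and each had 1 probe set. By role, 7 belong to the thin filament, 5 to the thick filament, titin and the M-band, 13 to the Z-disc, 5 to the intermediate filaments, costameres and intercalated discs, 4 are ubiquitin ligases of muscle and 2 assist myosin assembly.

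The sarcomere is the repeating unit of striated muscle. Thin filaments of actin carry tropomyosin and the troponin complex, which senses calcium, and slide along thick filaments of myosin. The Z-disc crosslinks thin filaments of neighbouring sarcomeres through alpha-actinin, and titin spans from the Z-disc to the M-band, where thick filaments are tied together. Desmin and proteins of the costamere and intercalated disc pass force to the membrane and to neighbouring cells, whereas muscle ubiquitin ligases mark sarcomere proteins for breakdown and chaperones such as Unc45b fold the myosin head. Many of these genes are known for mutations that cause cardiomyopathy in humans.

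Gene expression was measured on Clariom S arrays in ventricle and brain cortex of Tatdn1-/- mice and of Tatdn1+/+ mice, which the labels call tatd-/- and tatd+/+, 6 mice per genotype with 3 males and 3 females each, and 1 array per tissue and mouse (24 arrays). All mice were 2 months old. The null allele lacks exon 3 in the whole body: floxed mice had been crossed with CAG-Cre mice on a C57BL/6J background, the Cre transgene was then bred out, and both genotypes came from intercrosses of heterozygotes, so that the loss is not restricted to cardiomyocytes. The labels name the tissue cardiac ventricle, and the study's methods name the left ventricle. The mice of each genotype are separate animals. The numbers that open the mouse codes differ between all Tatdn1-/- and all Tatdn1+/+ mice, and a litter or cage that they might mark cannot be told apart from genotype.

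Values are log2 units of signal that the authors had normalized by RMA, and array medians over all entries ran from 2.55 to 2.86. Tatdn1 itself averaged 5.49 ± 0.39 in Tatdn1-/- ventricle and 6.85 ± 0.25 in Tatdn1+/+ ventricle (SD, n = 6 each, limma adjusted p = 0.0156), and 4.99 ± 0.32 in Tatdn1-/- cortex and 5.77 ± 0.34 in Tatdn1+/+ cortex (adjusted p = 0.168). Markers of the sampled tissue fitted the labels: 16 of 16 cardiomyocyte markers outside the 36 genes, such as Myh6 and Ryr2, were higher in ventricle, and 11 of 11 neuron markers were higher in cortex. In bulk tissue, fewer cells of a type and less RNA per cell cannot be told apart. On 1 Tatdn1-/- ventricle array, that of female F77-2, the mean of 6 atrial markers was 7.21, against 3.81 to 4.19 on the other Tatdn1-/- ventricle arrays and 3.71 to 4.19 in Tatdn1+/+ ventricle. Its signal for Myl7, the atrial light chain, was 7.89, against 1.17 to 2.43 on the other Tatdn1-/- ventricle arrays and 1.71 to 3.08 in Tatdn1+/+ ventricle. A further array, that of Tatdn1-/- male M78-1, had the highest mean of 11 neuron markers among ventricle arrays (4.75, against 3.24 to 4.01 on the other Tatdn1-/- arrays and 3.14 to 3.84 on Tatdn1+/+ arrays). The means of glial markers did not single it out. Its mean of 7 astrocyte markers was 4.17, against 4.46 on Tatdn1-/- female F77-3. Its mean of 6 oligodendrocyte markers was 2.97, against 2.99 on Tatdn1+/+ male M75-1. Slc1a2, the only astrocyte marker given here by array, was highest on M78-1. It gave 5.01 there, against 2.33 to 4.11 on the other Tatdn1-/- ventricle arrays and 1.84 to 2.67 in Tatdn1+/+ ventricle. Counts and named genes in ventricle are also given without F77-2 and M78-1, and the part of other tissue in these 2 arrays was not tested.

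To show the muscle elements in front of these genes, promoter windows of 300 bases (250 before and 50 after the transcription start) were read from RefSeq (GRCm38.p6). Windows were on hand for 29 of the 36 genes, not for Tcap, Myot, Nexn, Fbxo32, Xirp1, Myom2 and Trim55. The CArG box, the element that serum response factor binds, stood in the windows of 5 of these 29 genes (17.2%), Actc1, Myl3, Myom1, Ldb3 and Nebl, and in those of 1.81% of all 27025 genes with a window. The site of MEF2, a muscle transcription factor, stood in those of 5 genes (17.2%), Mybpc3, Ttn, Myoz2, Synpo2l and Xirp2, against 3.7% of all genes. CATTCC, the MCAT element of TEAD factors, stood on either strand in 11 (37.9%, against 16.6% of all genes), CANNTG, the E-box, in 25 (86.2%, against 75%) and TATAAA, read on the strand of the gene, in 2 (6.9%, against 9.77%). The CArG box, the MEF2 site and the E-box read alike on both strands, and TATAAA can lie inside a CArG box or a MEF2 site. These matches are letters in a window, not sites shown to be bound.

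Capitals mark the MEF2 site in Myoz2 and Mybpc3 and the CArG box in Myl3, which are shown because their windows hold an element. Csrp3, Tnni3 and Des, whose differences between ventricle and cortex are described beside theirs, hold neither element in their windows, and neither does Ky, which is shown as the gene with the largest difference between genotypes in ventricle. Myoz2 lies on the minus strand at chr3:123034938-123035237, Mybpc3 on the plus strand at chr2:91117894-91118193, Myl3 on the plus strand at chr9:110763428-110763727 and Ky on the plus strand at chr9:102505888-102506187. The annotated Ky gene begins at chr9:102505755, before its window, so that the window belongs to a start further downstream. The annotated starts of Mybpc3 (chr2:91118114) and Myoz2 (chr3:123035003) also lie upstream of the transcription start used for their windows, though inside the windows. The capitals begin 33 bases before the transcription start used for the window in Myoz2, 90 in Mybpc3 and 85 in Myl3.
Myoz2: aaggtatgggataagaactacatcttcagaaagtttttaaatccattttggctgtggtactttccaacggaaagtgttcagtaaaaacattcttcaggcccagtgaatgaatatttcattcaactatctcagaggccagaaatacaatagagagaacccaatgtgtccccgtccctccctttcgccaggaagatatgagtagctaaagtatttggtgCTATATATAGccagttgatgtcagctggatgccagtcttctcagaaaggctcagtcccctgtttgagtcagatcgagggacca
Mybpc3: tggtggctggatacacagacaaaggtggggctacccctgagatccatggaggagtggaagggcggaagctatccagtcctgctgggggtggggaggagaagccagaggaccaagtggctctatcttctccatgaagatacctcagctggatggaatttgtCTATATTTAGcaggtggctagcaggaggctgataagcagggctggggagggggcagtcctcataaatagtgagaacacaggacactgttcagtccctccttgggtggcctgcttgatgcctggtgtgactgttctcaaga
Myl3: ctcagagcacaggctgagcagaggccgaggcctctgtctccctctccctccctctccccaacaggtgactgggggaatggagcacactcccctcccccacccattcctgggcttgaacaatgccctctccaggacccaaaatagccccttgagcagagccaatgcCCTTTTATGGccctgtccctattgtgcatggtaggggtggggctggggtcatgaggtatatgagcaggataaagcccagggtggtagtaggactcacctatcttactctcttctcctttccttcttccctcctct
Ky: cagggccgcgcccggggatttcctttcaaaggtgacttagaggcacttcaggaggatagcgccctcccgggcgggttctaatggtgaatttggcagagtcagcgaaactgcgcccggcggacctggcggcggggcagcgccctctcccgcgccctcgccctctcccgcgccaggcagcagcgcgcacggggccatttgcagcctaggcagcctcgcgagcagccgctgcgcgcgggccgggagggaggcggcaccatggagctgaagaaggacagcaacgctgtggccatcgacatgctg

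All 36 genes were higher in ventricle than in cortex, in Tatdn1-/- mice and in Tatdn1+/+ mice. The median log2 difference, ventricle minus cortex, was 6.78 in Tatdn1-/- mice and 6.53 in Tatdn1+/+ mice, against 0.09 over all probe sets in both genotypes. With Benjamini-Hochberg adjustment over 22206 probe sets, limma called 36 of 36 genes higher in ventricle in each genotype and 0 lower. Over all probe sets, 29.7% were called higher and 25.2% lower in Tatdn1-/- mice, and 30.2% were called higher and 26.8% lower in Tatdn1+/+ mice. The genes had been chosen as heart muscle genes, so the direction describes them and is not a finding. For 24 of them the cortex signal lay on every array below the brightest of 23 control probe sets for background hybridization. The size of their difference is known only as a bound against that control. Its median was at least 5.08 on the log2 scale in Tatdn1+/+ mice. The brightest control is a strict limit, since the mean of the 23 controls was 1.54 to 2.08 on cortex arrays.

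**Figure D1:**
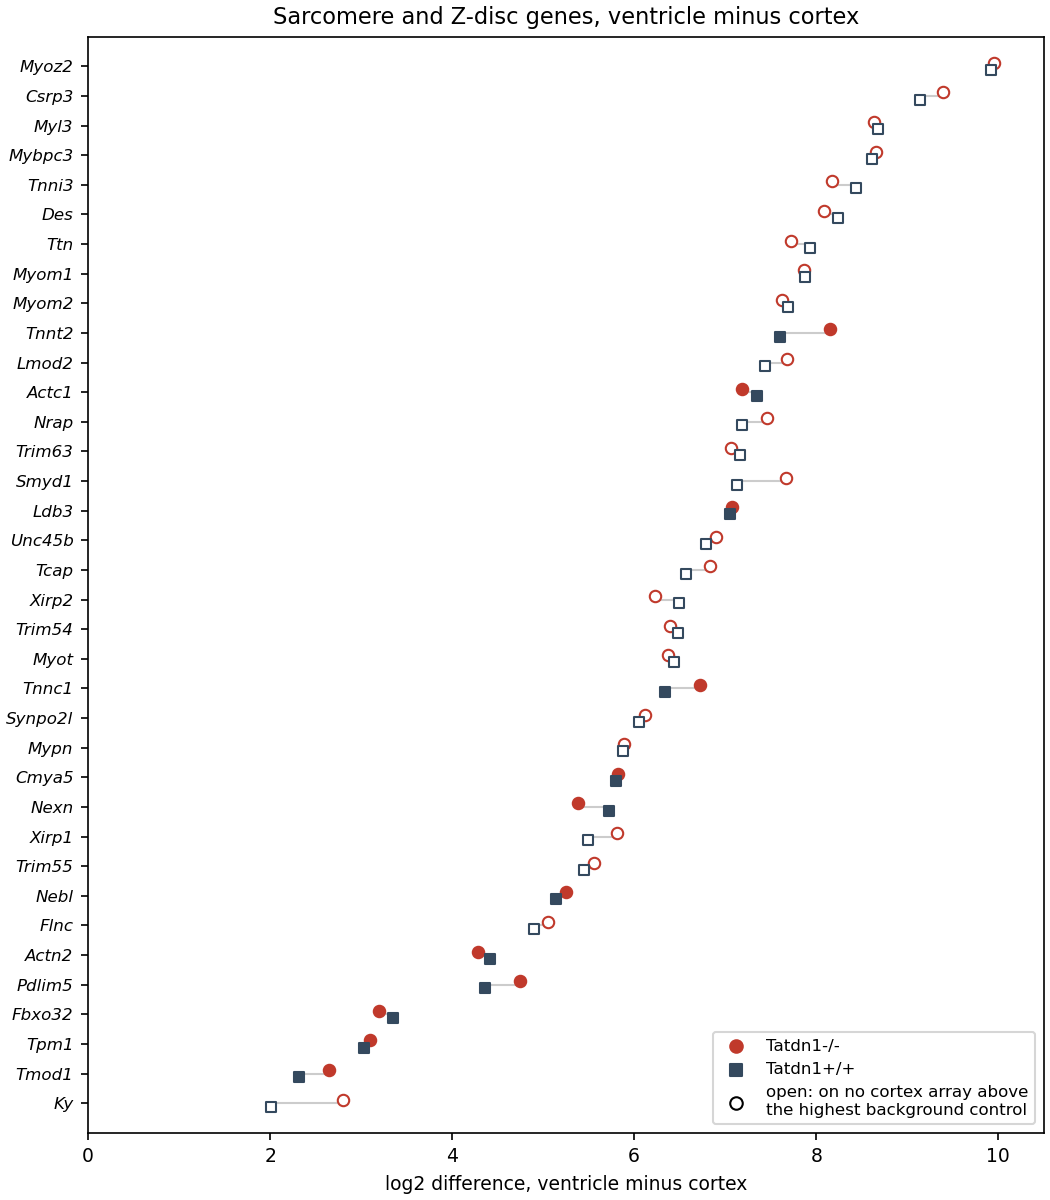
Log2 difference, ventricle minus cortex, of the 36 genes (rows), in Tatdn1-/- mice (circles) and Tatdn1+/+ mice (squares), 6 mice per point, with open symbols for genes on no cortex array above the highest background control. All points lie right of 0, and the position of an open symbol rests on cortex signal below the control and carries no order.

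Myoz2 encodes calsarcin, a Z-disc protein that binds alpha-actinin and calcineurin. In Tatdn1+/+ mice Myoz2 gave 11.16, 11.19 and 11.33 (lowest, median and highest of 6) in ventricle, against 1.045, 1.310 and 1.496 in cortex, where it was not above the brightest control on any array. The ventricle was at least 140-fold higher in Tatdn1-/- mice and at least 130-fold higher in Tatdn1+/+ mice. Tnnt2, cardiac troponin T, had the same bound in Tatdn1+/+ mice, at least 130-fold, with 0 Tatdn1-/- and 1 Tatdn1+/+ cortex arrays above the control, and Actc1, cardiac actin, had one of at least 106-fold, with 3 Tatdn1-/- and 2 Tatdn1+/+ cortex arrays above it.

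Csrp3, Myl3, Mybpc3, Tnni3 and Des were likewise on no cortex array above the brightest control. Csrp3 encodes the muscle LIM protein of the Z-disc, Myl3 the ventricular essential light chain of myosin, Mybpc3 the cardiac myosin-binding protein C, Tnni3 cardiac troponin I and Des desmin. In Tatdn1+/+ mice the ventricle was at least 103-fold higher for Myl3, 91.4-fold for Csrp3, 81.6-fold for Mybpc3, 66.4-fold for Tnni3 and 58-fold for Des. Csrp3 gave 10.58, 10.67 and 10.82 (lowest, median and highest) in Tatdn1+/+ ventricle, against 1.20, 1.56 and 2.03 in Tatdn1+/+ cortex. Des gave 9.90, 10.03 and 10.16 in Tatdn1+/+ ventricle, against 1.48, 1.79 and 2.31 in Tatdn1+/+ cortex. No array of either tissue came near the other in these genes. Myl3 gave 10.78 to 10.92 in Tatdn1+/+ ventricle and 1.39 to 2.70 in Tatdn1+/+ cortex, and Tnni3 gave 10.01 to 10.37 in ventricle and 1.30 to 2.27 in cortex.

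Of the 36 genes, 4 lay above the brightest background control on all 12 cortex arrays: Tmod1, which caps the pointed end of thin filaments, Tpm1, a tropomyosin, Pdlim5, a Z-disc scaffold with LIM domains, and Actn2, the alpha-actinin of the Z-disc. In these 4 genes the name cardiomyocyte gene thus goes against a measured signal in cortex. Tmod1 gave 9.49, 9.72 and 9.86 in Tatdn1+/+ ventricle, against 7.15, 7.29 and 7.76 in Tatdn1+/+ cortex (log2 difference 2.32, standard error 0.13). Tpm1 gave 11.52, 11.56 and 11.64 in Tatdn1+/+ ventricle, against 8.38, 8.49 and 8.82 in Tatdn1+/+ cortex (3.03, standard error 0.09). In both genes the tissues did not overlap. Pdlim5 gave 10.41, 10.49 and 10.62 in Tatdn1+/+ ventricle, against 5.69, 6.13 and 6.67 in cortex (4.36, standard error 0.13), and Actn2 gave 10.83, 10.99 and 11.11 in Tatdn1+/+ ventricle, against 6.24, 6.58 and 6.75 in cortex (4.41, standard error 0.12).

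Fbxo32 encodes atrogin-1, the F-box protein of a muscle ubiquitin ligase, and lies 675 kb from Tatdn1 on chromosome 15. It gave 7.71, 8.03 and 8.18 in Tatdn1+/+ ventricle, against 3.89, 4.71 and 5.23 in Tatdn1+/+ cortex (3.35, standard error 0.18), and was above the brightest control on 5 Tatdn1-/- and 5 Tatdn1+/+ cortex arrays. Ky, the kyphoscoliosis peptidase of the Z-disc, was the dimmest case in the heart relative to the controls: it lay above the brightest of them on 6 of 6 Tatdn1-/- ventricle arrays, on 3 of 6 Tatdn1+/+ ventricle arrays and on no cortex array. Its bound was at least 1.33-fold in Tatdn1+/+ mice and at least 2.5-fold in Tatdn1-/- mice. The other 35 genes were above the brightest control on every ventricle array.

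In cortex, 24 of the 36 genes were above the brightest background control on no array, 4 on all and 8 on some. The last were Fbxo32, Nebl (nebulette) and Tnnc1 (troponin C of slow and cardiac muscle), each on 4 or 5 arrays per genotype, and Actc1 (cardiac actin), Nexn (nexilin), Ldb3 (cypher), Cmya5 (myospryn) and Tnnt2 (cardiac troponin T), each on at most 3 arrays per genotype. A difference between genotypes in cortex for the 24 genes has little signal under it. By role, the median bound in Tatdn1+/+ mice was 6.15 on the log2 scale for the 5 genes of the thick filament, titin and M-band, all of them on no cortex array above the control, and 6.05 for the 7 thin filament genes, of which 2 were on none. It was 4.74 for intermediate filament, costamere and intercalated disc, 4.50 for myosin assembly, 4.41 for the Z-disc and 3.98 for the ubiquitin ligases, and these medians of lower bounds give no order of the roles.

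The effect of Tatdn1 loss on these genes in the ventricle was small. In limma 0 of the 36 genes reached an adjusted p under 0.05, and the mean in Tatdn1-/- ventricle was higher for 17 and lower for 19. Tatdn1-/- minus Tatdn1+/+ gave a median of -0.00 on the log2 scale, against 0.02 over all probe sets. The mean over the 36 genes was 9.34, 9.46 and 9.52 (lowest, median and highest array) in Tatdn1-/- ventricle and 9.28, 9.39 and 9.53 in Tatdn1+/+ ventricle, ranges that overlapped almost wholly. At an unadjusted p under 0.05, 4 genes were higher, Ky, Tcap, Xirp1 and Mybpc3, and 0 were lower.

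Over all probe sets 0.0135% passed the adjusted threshold in ventricle, and at an unadjusted p under 0.05, 5.08% were higher and 3.37% lower. The 4 of 36 genes that were higher thus stand beside a background of 5.08%. The 36 genes were chosen with earlier results of these data known. The study had named Ky among genes changed in Tatdn1-/- heart, so this count is not independent of those results. The study's list of those genes required a larger fold change than the 1.7-fold of Ky here. The arrays of the genotypes did not overlap for 1 of the 36 genes, Tcap, against 0.59% of all probe sets. The 95% interval of the log2 difference reached a median of 0.23 to either side over the 36 genes. Over all probe sets, not matched for signal, it reached 0.33. For 28 genes the interval lay wholly between -0.5 and 0.5. The other 8 were Ky, Tcap, Xirp1, Smyd1, Ttn, Flnc, Myot and Xirp2.

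**Figure D2:**
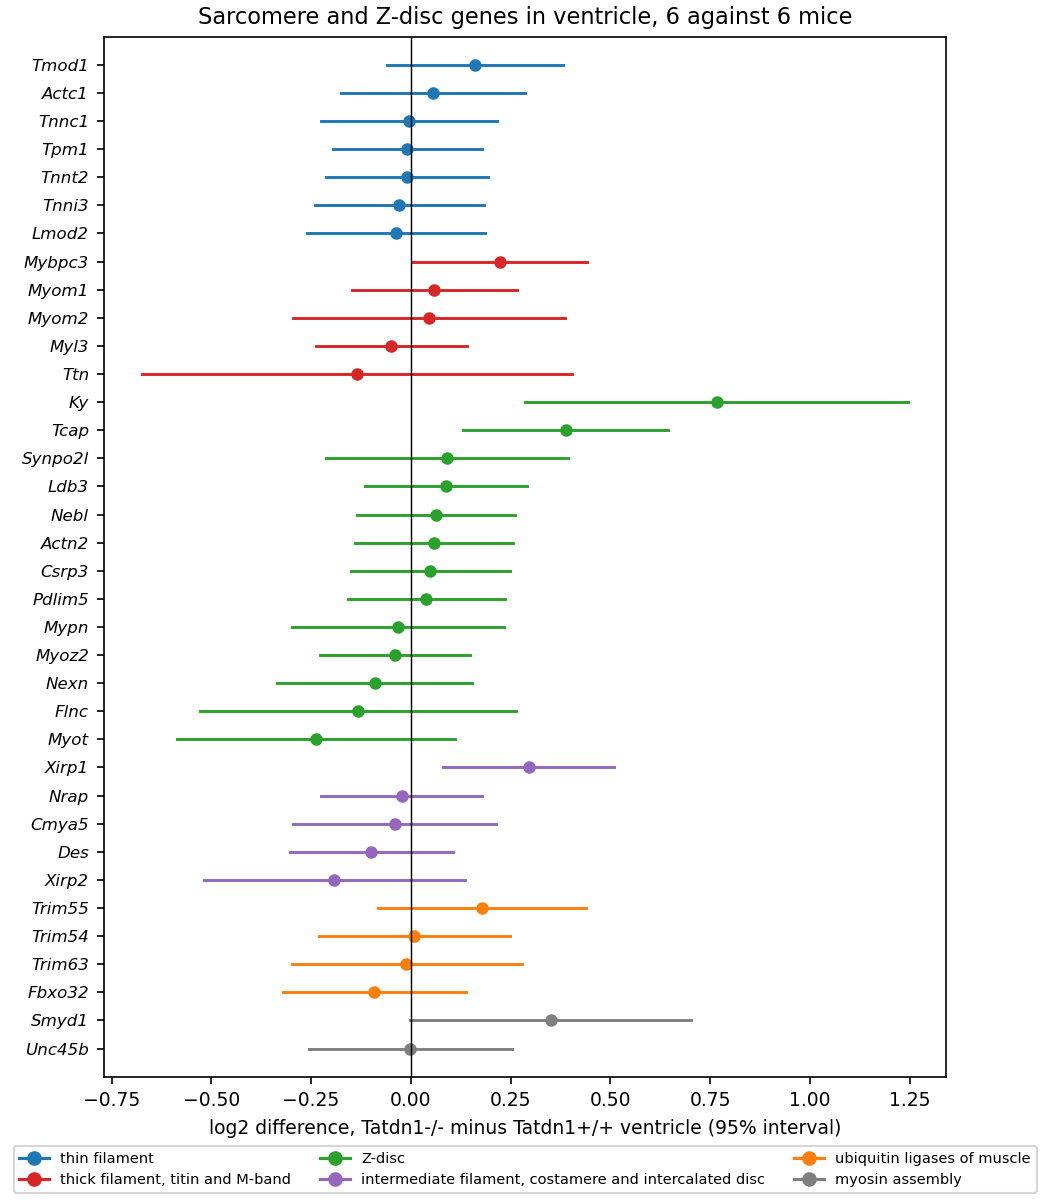
Log2 difference, Tatdn1-/- minus Tatdn1+/+ ventricle, of the 36 genes (points) with the 95% interval from limma (bars), grouped by role, 6 mice per genotype. The differences run from -0.24 for Myot to 0.77 for Ky, and the intervals of Ky, Tcap, Xirp1 and Mybpc3 lie above 0.

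Ky had the largest difference. Its loss in mice causes the kyphoscoliosis that named it, and the protein binds filamin C at the Z-disc. Ky gave 4.96, 5.33 and 5.86 (lowest, median and highest of 6) in Tatdn1-/- ventricle, against 3.91, 4.53 and 5.55 in Tatdn1+/+ ventricle. All 6 Tatdn1-/- arrays lay above 5 of the 6 Tatdn1+/+ arrays, and the exception was male M75-0 at 5.55. The log2 difference was 0.77 (standard error 0.23, 95% interval 0.29 to 1.25), and the exact permutation test (two-sided) gave p = 0.0173, with a limma adjusted p of 0.388. It was 0.47 in males and 1.06 in females. The brightest background control ran from 4.25 to 5.05 on Tatdn1-/- ventricle arrays and from 4.20 to 5.53 on Tatdn1+/+ ventricle arrays, so that Ky was measured close to it.

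Tcap encodes telethonin, which caps the end of titin in the Z-disc. It gave 9.64, 9.85 and 10.09 in Tatdn1-/- ventricle, against 9.28, 9.49 and 9.63 in Tatdn1+/+ ventricle. Every Tatdn1-/- array lay above every Tatdn1+/+ array, the nearest pair being 9.638 and 9.633. The log2 difference was 0.39 (standard error 0.12, 95% interval 0.13 to 0.65, 1.31-fold), and the exact permutation test gave p = 0.00216, the smallest that 924 ways to divide the mice allow, with a limma adjusted p of 0.419. It was 0.30 in males and 0.48 in females.

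Xirp1 encodes Xin, an actin-binding protein of the intercalated disc. It gave 8.48, 8.73 and 8.77 in Tatdn1-/- ventricle, against 8.26, 8.36 and 8.62 in Tatdn1+/+ ventricle. On 5 arrays of Tatdn1-/- mice it exceeded every Tatdn1+/+ array, and the lowest Tatdn1-/- value was that of F77-2, the array with atrial markers. The log2 difference was 0.30 (standard error 0.10, 95% interval 0.08 to 0.51), with an exact permutation p = 0.00433 and a limma adjusted p of 0.442.

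Mybpc3, a thick filament protein that tunes crossbridge cycling, had the smallest difference of the 4 genes. It gave 10.52, 10.78 and 10.89 in Tatdn1-/- ventricle, against 10.34, 10.54 and 10.69 in Tatdn1+/+ ventricle. Again 5 Tatdn1-/- arrays exceeded every Tatdn1+/+ array, and F77-2 was the lowest. The log2 difference was 0.22 (standard error 0.10, 95% interval 0.01 to 0.44), with an exact permutation p = 0.0130 and a limma adjusted p of 0.574.

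**Figure D3:**
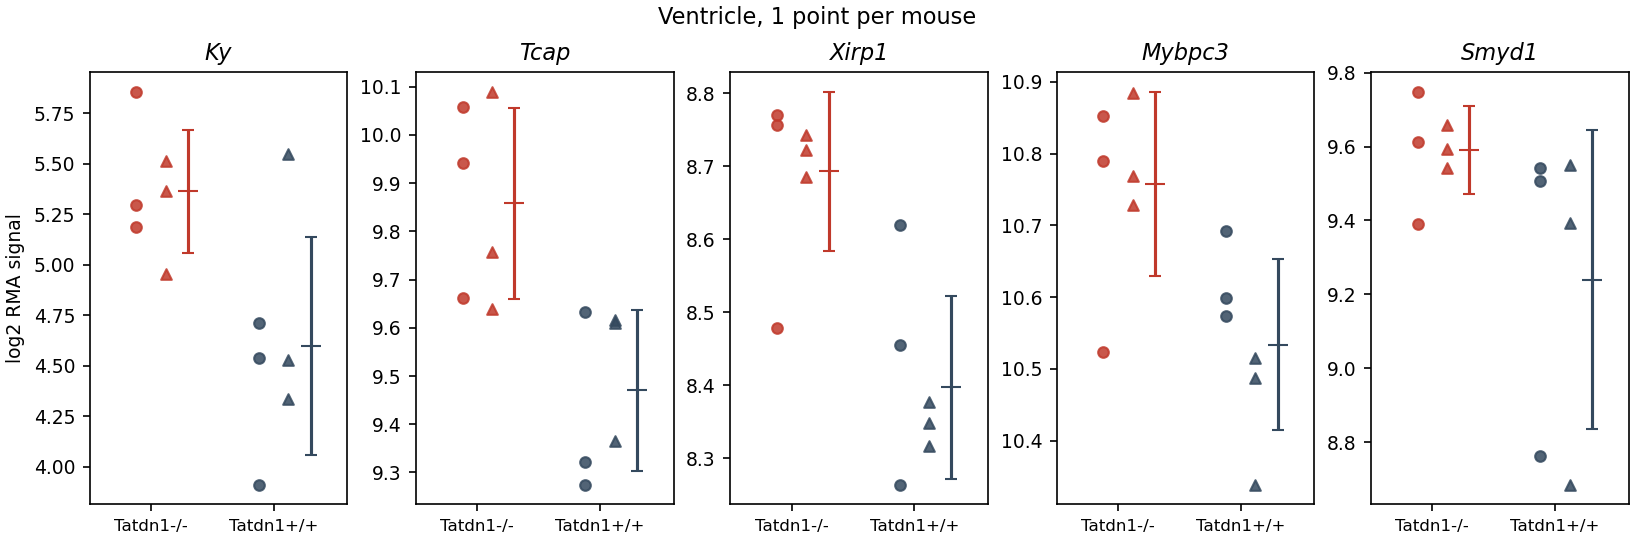
Log2 RMA signal of Ky, Tcap, Xirp1, Mybpc3 and Smyd1 in Tatdn1-/- (red) and Tatdn1+/+ (dark blue) ventricle, 1 point per mouse (circles for females, triangles for males), with the mean and SD of 6 mice beside the points. The genotypes are fully apart for Tcap, and for Xirp1 and Mybpc3 the lowest red point is that of female F77-2; the vertical axes differ and do not start at 0.

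Without F77-2 an unadjusted p under 0.05 was again reached by these 4 genes, all higher, and without M78-1 by Tcap, Ky and Xirp1. Without both arrays the 4 genes were again Ky (0.88, 95% interval 0.33 to 1.44), Tcap (0.49, 0.21 to 0.78), Xirp1 (0.34, 0.09 to 0.59) and Mybpc3 (0.29, 0.04 to 0.54). Without M78-1 alone the interval of Mybpc3 ran from -0.01 to 0.47. In each of these settings 0 genes had an adjusted p under 0.05 and 0 were lower at an unadjusted p under 0.05. Over the 36 genes, 22 means were higher and 14 lower without F77-2 (median 0.03) and also without both arrays (median 0.02). Without M78-1 alone 17 were higher and 19 lower (median -0.01). F77-2 had the lowest value of the 6 Tatdn1-/- ventricle arrays for 16 of the 36 genes, and M78-1 for 2.

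Smyd1, a muscle histone methyltransferase that also binds myosin, came next, with an interval that touched 0. It gave 9.39, 9.60 and 9.75 in Tatdn1-/- ventricle, against 8.69, 9.45 and 9.55 in Tatdn1+/+ ventricle (log2 difference 0.35, standard error 0.17, 95% interval -0.00 to 0.70, p = 0.0541 in the exact permutation test). The spread was wide in Tatdn1+/+ mice, where F76-1 and M75-0 gave 8.762 and 8.685 and the other 4 mice 9.39 or more. In Ttn, the giant spring protein titin, the same pair of Tatdn1+/+ mice stood at the other end, with 10.425 and 10.569, against 9.07 to 9.68 in the other 4, and with 9.28 to 9.99 in Tatdn1-/- mice. Ttn had the widest interval of the 36 genes (log2 difference -0.14, 95% interval -0.67 to 0.40).

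Among thin filament genes 2 of 7 had a higher mean in Tatdn1-/- ventricle, with a median difference of -0.01. Tmod1 had the largest (0.16, 95% interval -0.06 to 0.38), and the intervals of Actc1 (-0.17 to 0.28), Tnnt2 (-0.21 to 0.19), Tnni3 (-0.24 to 0.18), Tnnc1 (-0.23 to 0.22), Tpm1 (-0.20 to 0.18) and Lmod2 (-0.26 to 0.18) bound a difference in either direction to less than 0.3. Lmod2, leiomodin, nucleates actin and lengthens thin filaments. Of the 5 genes of the thick filament, titin and M-band, 3 had a higher mean. Besides Mybpc3 and Ttn these were Myl3 (-0.05, 95% interval -0.24 to 0.14) and the M-band proteins Myom1 (0.06, -0.15 to 0.27) and Myom2 (0.04, -0.30 to 0.39).

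In the Z-disc, 8 of 13 genes had a higher mean, with a median difference of 0.05. Apart from Ky and Tcap the differences were between -0.24 and 0.09. Myot, myotilin, gave -0.24 (95% interval -0.59 to 0.11) and Flnc, filamin C, -0.13 (-0.53 to 0.26). Those of Actn2, Ldb3, Csrp3, Myoz2, Nexn, Pdlim5, Nebl, Mypn (myopalladin) and Synpo2l, which binds alpha-actinin, lay between -0.09 and 0.09. Among the 5 genes of intermediate filament, costamere and intercalated disc, Xirp1 alone had a higher mean. Des gave -0.10 (95% interval -0.30 to 0.11), Cmya5, myospryn, -0.04, Nrap, a nebulin-related anchoring protein, -0.02, and Xirp2, a relative of Xin, -0.19 (-0.52 to 0.14).

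The ubiquitin ligases of muscle split evenly. Trim55 gave 0.18 (95% interval -0.08 to 0.44), Trim54 0.01, Trim63, known as MuRF1, -0.01 (-0.30 to 0.28) and Fbxo32 -0.09 (-0.32 to 0.14). Unc45b, the myosin chaperone, gave -0.00 (-0.26 to 0.25).

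Related genes outside the 36 were set beside them, and none of these lists held a gene with an adjusted p under 0.05 in ventricle. Of 19 other sarcomere genes measured, the mean of 13 was higher (median difference 0.06). At an unadjusted p under 0.05, 0 were higher and 1 lower, where 5.08% of all probe sets were higher and 3.37% lower. The widest difference of this list was that of Mybphl, a myosin-binding protein known from the atrium (1.03, standard error 0.55, limma adjusted p = 0.644), which was above the brightest control of its own array only on F77-2, at 5.55, against 0.78 to 2.17 in Tatdn1+/+ ventricle. Without F77-2 it was 0.40 (standard error 0.20). The gene that was lower was Mylk3, the cardiac myosin light chain kinase, at 9.29 ± 0.12 in Tatdn1-/- and 9.64 ± 0.14 in Tatdn1+/+ ventricle (SD, n = 6 each, log2 difference -0.36, standard error 0.10, limma adjusted p = 0.388). Of 21 other Z-disc and titin-binding genes and of 14 genes of the intercalated disc and costamere, 0 passed at an unadjusted p under 0.05 in either direction, with medians of -0.01 and 0.06. Of 12 cardiac and muscle transcription factors 0 were higher and 2 lower: Hand2 (-0.39, standard error 0.16, limma adjusted p = 0.530) and Nkx2-5 (-0.32, standard error 0.15, limma adjusted p = 0.578). Without F77-2 and M78-1, Mylk3 (-0.35) and Nkx2-5 (-0.37) were still lower at an unadjusted p under 0.05, whereas Hand2 (-0.24) was not. When M78-1 alone was left out, Mylk3 (-0.34) and Nkx2-5 (-0.37) passed and Hand2 (-0.35) did not. When F77-2 alone was left out, Mylk3 (-0.36) passed, but Nkx2-5 (-0.31) and Hand2 (-0.31) did not. In that last setting 1 of the 12 transcription factors was higher by the same threshold and 0 were lower. Of 12 ubiquitin and FoxO atrophy genes 0 passed in either direction.

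Markers of other cells were set beside these values. At an unadjusted p under 0.05, 5.08% of all probe sets were higher in Tatdn1-/- ventricle and 3.37% lower. The 16 cardiomyocyte markers averaged 10.30 to 10.42 on Tatdn1-/- ventricle arrays and 10.23 to 10.41 on Tatdn1+/+ ventricle arrays, with a median gene difference of 0.03 and 0 genes at an unadjusted p under 0.05. The 14 skeletal muscle markers averaged 3.43 to 3.84 on Tatdn1-/- and 3.46 to 3.73 on Tatdn1+/+ ventricle arrays. Of these, 8 had a higher and 6 a lower mean in Tatdn1-/- ventricle, with a median of 0.03. At an unadjusted p under 0.05, 1, Casq1, was higher (log2 difference 0.99, standard error 0.29, limma adjusted p = 0.388). Casq1 was above the brightest control of its own array on 5 Tatdn1-/- and 2 Tatdn1+/+ ventricle arrays, and its highest value, 5.85, was on M78-1. Of 9 fibroblast markers 7 had a higher mean in Tatdn1-/- ventricle and 1, Col3a1, passed an unadjusted p under 0.05 (0.86, standard error 0.27, limma adjusted p = 0.419), with array means of 5.84 to 6.48 in Tatdn1-/- and 5.64 to 6.11 in Tatdn1+/+ ventricle. The mean of 6.48 was that of F77-2. When F77-2 and M78-1 were left out, 7 of these markers again had a higher mean. Their median difference was then 0.06, against 0.14 with all arrays. Col3a1 (0.64) still passed in that setting, and 1 other fibroblast marker passed in the opposite direction. With all arrays, 3 of 11 neuron markers were higher by the same threshold and, of 7 astrocyte markers, 1, Slc1a2 (1.04, standard error 0.39, limma adjusted p = 0.499). Without F77-2 and M78-1 these counts were 1 and 0, and Slc1a2 gave 0.63. Slc1a2 averaged 3.27 in Tatdn1-/- and 2.23 in Tatdn1+/+ ventricle, where the brightest background control ran from 4.20 to 5.53. Of 12 smooth muscle and pericyte markers 8 had a higher mean and 1, Kcnj8, passed an unadjusted p under 0.05 (0.50, standard error 0.16, limma adjusted p = 0.428). Of 8 macrophage markers 7 had a lower mean (median -0.12), with 0 at an unadjusted p under 0.05. Of 6 atrial markers 6 had a higher mean (median 0.53), and 3 without F77-2. Endothelial, oligodendrocyte, erythrocyte and adipocyte markers held 0 genes at an unadjusted p under 0.05. The part of these cells in the differences of Ky, Tcap, Xirp1 and Mybpc3 was not tested.

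In cortex, where these genes are dim, no gene of the 36 passed an adjusted p of 0.05 (0.00901% of all probe sets did). At an unadjusted p under 0.05, 0 genes were higher (2.39% of all probe sets) and 3 were lower in Tatdn1-/- cortex, Tnnc1, Tnnt2 and Pdlim5, against 4.59% of all probe sets. On the log2 scale the median of the 36 differences was -0.01, against -0.02 over all probe sets, with 18 means higher and 18 lower. The arrays of the genotypes did not overlap for 0 of the 36 genes, against 0.576% of all probe sets.

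Tnnc1, the calcium sensor of the troponin complex, gave 3.67, 3.90 and 4.11 (lowest, median and highest) in Tatdn1-/- cortex, against 3.85, 4.36 and 4.59 in Tatdn1+/+ cortex. The ranges overlapped, and 4 Tatdn1+/+ arrays exceeded every Tatdn1-/- array. The log2 difference was -0.39 (standard error 0.14), with an exact permutation p = 0.0260 and a limma adjusted p of 0.576. Pdlim5, which was above the controls on all cortex arrays, gave 5.45, 5.78 and 6.11 in Tatdn1-/- cortex, against 5.69, 6.13 and 6.67 in Tatdn1+/+ cortex (-0.34, standard error 0.16, p = 0.0563 in the exact permutation test, limma adjusted p = 0.688).

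Tnnt2 gave 2.71, 3.10 and 3.46 in Tatdn1-/- cortex, against 2.66, 3.85 and 4.47 in Tatdn1+/+ cortex, and was above the brightest control on 0 Tatdn1-/- and 1 Tatdn1+/+ arrays. Here the lowest array of all was a Tatdn1+/+ one, and the difference of -0.56 (standard error 0.25) had an exact permutation p = 0.0887 and a limma adjusted p of 0.688. Ky did not stand apart in cortex, with 2.44 to 2.81 in Tatdn1-/- and 2.13 to 3.14 in Tatdn1+/+ mice (-0.02, standard error 0.16, limma adjusted p = 0.986).

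**Figure D4:**
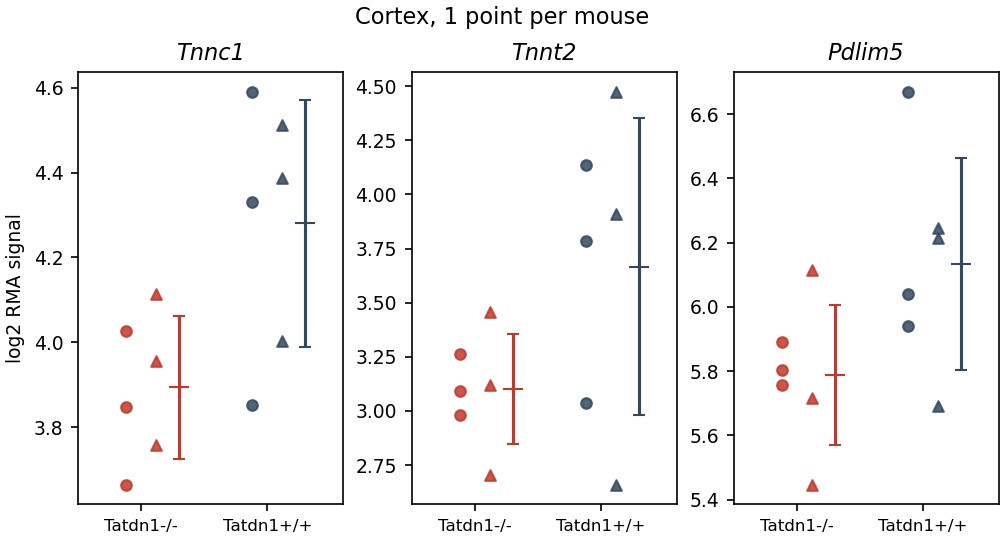
Log2 RMA signal of Tnnc1, Tnnt2 and Pdlim5 in Tatdn1-/- (red) and Tatdn1+/+ (dark blue) cortex, 1 point per mouse (circles for females, triangles for males), with the mean and SD of 6 mice beside the points. The genotypes overlap in all 3 genes, with means lower by 0.39, 0.56 and 0.34 in Tatdn1-/- cortex; the vertical axes differ and do not start at 0.

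Of the related genes in cortex, Pkp2, a desmosome protein of the intercalated disc, had the smallest p of these lists, at 2.87 ± 0.33 in Tatdn1-/- and 3.83 ± 0.34 in Tatdn1+/+ cortex (SD, n = 6 each, limma adjusted p = 0.0794). It was above the brightest control of its own array on 0 Tatdn1-/- and 1 Tatdn1+/+ cortex arrays, so that no fold is given. At an unadjusted p under 0.05, its list of 14 intercalated disc and costamere genes held 0 higher and 2 lower, Pkp2 and Tln1, the cytoskeletal protein talin (-0.29, standard error 0.12, limma adjusted p = 0.660). At an unadjusted p under 0.05 there were, of 19 other sarcomere genes, 1 higher and 2 lower, and of 21 other Z-disc genes 0 higher and 3 lower, where 2.39% of all probe sets were higher and 4.59% lower. The 12 transcription factors and the 12 ubiquitin and FoxO genes held 0 in either direction. Of 6 oligodendrocyte markers in cortex 5 had a higher mean in Tatdn1-/- mice (median 0.29), and 2 passed an unadjusted p under 0.05, Mbp (0.34, standard error 0.12, limma adjusted p = 0.538) and Cnp (0.40, standard error 0.16, limma adjusted p = 0.626). Their array means were 7.52 to 8.15 in Tatdn1-/- and 7.43 to 8.24 in Tatdn1+/+ cortex, and their part in the cortex values was not tested. Of 12 smooth muscle and pericyte markers 2 were higher, of 8 endothelial markers 1 was lower and of 2 erythrocyte markers 1 was higher by the same unadjusted threshold, while neuron, astrocyte and macrophage markers held 0.

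Whether Tatdn1 loss acted differently on these genes in the 2 tissues was tested over all 24 arrays. No gene of the 36 passed an adjusted p of 0.05 (0.0135% of all probe sets did). At an unadjusted p under 0.05, the effect in ventricle minus that in cortex was higher for 4 genes, against 6.31% of all probe sets, and lower for 0, against 3.22%. They were Ky (0.79, standard error 0.28, limma adjusted p = 0.363), Smyd1 (0.53, standard error 0.24, adjusted p = 0.488), Tnnc1 (0.38, standard error 0.17, adjusted p = 0.495) and Pdlim5 (0.38, standard error 0.18, adjusted p = 0.516). In Ky and Smyd1 the larger effect was that in ventricle, whereas Tnnc1 and Pdlim5 had differences of -0.00 and 0.04 in ventricle. Ky, Smyd1 and Tcap were above the brightest background control on 0 cortex arrays of either genotype, as were 24 of the 36 genes in all. For these genes the cortex effect has little signal under it, so the test cannot show a difference of effect between tissues. Tcap, with a difference of 0.39 in ventricle and 0.12 in cortex, had an effect that differed by 0.27 between tissues (standard error 0.20, limma adjusted p = 0.705).

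The effect of Tatdn1 loss in males minus that in females was tested within each tissue, with 3 mice per sex and genotype. In ventricle 0 of the 36 genes passed an unadjusted p under 0.05, against 5.27% of all probe sets, and in cortex 3 did, against 3.86%. The adjusted p was under 0.05 for none of them in ventricle or cortex, and for 0% of all probe sets. The 3 genes in cortex were Fbxo32, at -0.53 in males and 0.66 in females, Actc1, at 0.90 in males and -0.45 in females, and Xirp2, at -0.34 in males and 0.48 in females, with limma adjusted p values for the difference of 0.831, 0.995 and 0.995. The male value of Actc1 holds the array of M78-1 at 5.221, just below the brightest control of that array at 5.226, while the other Tatdn1-/- cortex arrays gave 3.58 to 4.02. Xirp2 was above the brightest background control on no cortex array, so its difference between sexes has little signal under it.

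Within the ventricle, the 36 genes were bright and were measured with little spread. No comparison with probe sets of like signal was made. The SD over 6 mice had a median of 0.11 in Tatdn1-/- and 0.16 in Tatdn1+/+ ventricle, against 0.25 and 0.28 over all probe sets, and in cortex it was 0.27 and 0.33, against 0.24 and 0.25. Tnnt2 had the smallest SD in Tatdn1-/- ventricle (0.03) and Tpm1 in Tatdn1+/+ ventricle (0.05), while Myot (0.37) and Ttn (0.64) had the largest. Among Tatdn1+/+ ventricle arrays, M75-0 and F76-1 each had the highest value for 12 of the 36 genes and M75-1 the lowest for 12.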

How the data were processed

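RNA of ventricle and cortex was hybridized to Mouse Clariom S HT arrays. The deposited values are log2 signals that the authors made by RMA (background correction, quantile normalization and summary by probe set; version not given in the sources used here). Whether both tissues went through RMA jointly is not stated. Of 29129 entries 6923, controls among them, were set aside, which left 22206 probe sets of genes for testing. A gene was read from its single-symbol probe set of highest mean over the 24 arrays. Genotypes were compared within each tissue in limma 3.58.1 (R 4.3.3, lmFit and eBayes, 6 against 6, no covariate), and tissues, the difference of effects between tissues and sexes in fits of group means, with Benjamini-Hochberg adjustment over all probe sets and a threshold of 0.05. Exact permutation tests were two-sided over 924 divisions of 12 mice. The fits were tested on simulated data. Fold bounds set the mean of the brighter tissue against, per cortex array, the higher of the gene and the brightest of 23 background controls. The depth of an array has no count, and the number of arrays limits precision.

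The 36 genes, the related lists and the markers were chosen with earlier results of these data known. Named in full are genes at an unadjusted p under 0.05 in a genotype contrast, the 6 largest and 6 smallest tissue differences and Ky, and at most 4 genes per related list. Ttn, Myl7, Tln1, Mybphl and the marker genes named for other cells were also given by value after their values were seen. Listed related genes without a matching symbol were not used here. Alternatives were other normalizations, a filter on dim probe sets, sex as a term, array weights, another variance model, an exact Wilcoxon test, males or females alone and the omission of each mouse in turn. Heart and brain arrays of a mouse share a code: their deviations from the group means correlated by -0.080 to 0.046, and the mouse entered as a random replicate block gave 4 genes at an unadjusted p under 0.05 for the difference between tissues, as without it.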

Additional observations from a re-analysis of the deposited data

Results flagged for a closer look

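In each group of 6 arrays, a value was looked at again where its gap to the nearest other array took up more of the group's range than Dixon's 95% limit allows. Of 144 groups (36 genes in 4 groups) 9 held such a value, and chance alone gives about 1 in 20. In Tatdn1-/- ventricle, female F77-2, whose array carried atrial markers, was low for Xirp1 (8.478, nearest array 8.686) and Trim63 (8.964, nearest 9.250). Myom2 was low in Tatdn1-/- ventricle of F77-1 (8.317, nearest 8.789) and in Tatdn1+/+ ventricle of M75-1 (8.161, nearest 8.778). In Tatdn1-/- cortex, M78-1 was high for Actc1 (5.221, nearest 4.024) and Tmod1 (7.808, nearest 7.181), F77-2 was high for Tcap (3.596, nearest 3.007), F77-1 was high for Ky (2.813, nearest 2.573) and M77-1 was low for Trim54 (1.462, nearest 2.338). Tcap, Ky and Trim54 lay below the brightest background control on all cortex arrays, and the Actc1 value of M78-1 lay below that of its own array (5.226).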

How the results depend on the processing

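No setting brought any of the 36 genes past an adjusted p of 0.05 between genotypes, in ventricle, cortex or the difference between them, and all 36 stayed higher in ventricle than in cortex in each setting run. The 4 genes higher in Tatdn1-/- ventricle at an unadjusted p under 0.05 were 3 to 4 when a mouse was left out, 1 in males alone and 2 in females alone, and Ky, Tcap, Xirp1 and Mybpc3 kept a positive difference in every setting. The 3 genes lower in Tatdn1-/- cortex were 1 after quantile normalization within the tissue, 1 after centring arrays on their median, 1 in the exact Wilcoxon test, 1 in males alone, 1 in females alone, 5 in the fit of all 24 arrays, and 1 to 4 when a mouse was left out (1 without Tatdn1+/+ M75-1, Tatdn1-/- M78-0 or Tatdn1-/- F77-3). Genes higher in Tatdn1-/- cortex were 0, and 1 in males alone and 1 in females alone. The 4 genes whose effect differed between tissues were 2 after quantile normalization of all arrays, 1 after centring and 4 with the mouse as a replicate block. The cortex difference of Ky, -0.02, was 0.024 after centring, 0.079 with array weights, 0.216 in females alone and -0.114 to 0.089 when a mouse was left out. The median cortex difference of the 36 genes, -0.01, was -0.10 in females alone. Each gene had 1 probe set, so taking the mean of a gene's probe sets changes nothing. The filter, quantile and centring settings moved the median of all probe sets in a tissue to between -0.031 and 0.031. The omission of both F77-2 and M78-1, and of either for named genes and lists, was chosen after seeing the data. In cortex, 24 of the 36 genes were on no array above the brightest background control and 4 were above it on all. The share of all probe sets at an unadjusted p under 0.05 is given above for the main fits alone. Whether the counts of the 36 genes moved with those of the whole array therefore cannot be told. The causes of these changes were not tested.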
